A study of Mus musculus with 91 samples.

Results

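The miRNAs described here are the 6 mature products of 3 hairpins that lie in imprinted domains of the mouse genome: mmu-miR-296-3p, mmu-miR-296-5p, mmu-miR-298-3p and mmu-miR-298-5p next to *Nespas* and *Gnas*, and mmu-miR-335-3p and mmu-miR-335-5p inside *Mest*. They were taken by name from the 1504 mature miRNAs that the larger count table lists, as 6 of 1504, and both arms of each hairpin were present. Earlier results of these data were known when they were chosen. The 91 libraries were made by CAS-seq, a small RNA sequencing method in which Cas9 cuts adapter dimers so that very little RNA is needed. The study asked how the loss of DNA methyltransferases alters embryos around gastrulation, and these libraries give the miRNA side of that question.

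Of these, 62 libraries came from natural embryos, dissected into extraembryonic ectoderm (Exe) and epiblast (Epi) at E6.5 and E7.5. The strain label is C57BL/6 male X F1 female, and zygotes of B6D2F1 females mated to Oct4-EGFP males were injected with a cytosine base editor. Control embryos received the editor without a guide RNA, so the editor is shared by all 4 genotypes. Guides against *Dnmt1* gave Dnmt1-KO embryos, guides against *Dnmt3a* and *Dnmt3b* gave Dnmt3a/3b-DKO embryos, and guides against all 3 genes gave Dnmt-null embryos, which the labels call TKO. Each of the 16 groups had 4 libraries, except 3 in E7.5 Epi control and 3 in E7.5 Epi Dnmt-null. The sources do not say whether a library holds 1 embryo or a pool, so the spread within a group may be partly technical. The remaining libraries came from androgenetic haploid embryonic stem cells (AG-haESCs) of strain C57BL/6, grown with Lif and 2 kinase inhibitors, and from semi-cloned (SC) embryos made by injecting such cells into oocytes in place of sperm. The AG-haESC groups were WT (n = 3), O48 (n = 3) and Mir-6KO (n = 2). O48 is the line into which the miRNA deletions were introduced, and is taken here to be the line deleted for the *H19* and *IG* differentially methylated regions (DKO). Gene-modified lines were single-cell clones. The SC groups at E6.5 were WT, DKO, Dnmt-null and the combined DKO;Dnmt-null, and those at E7.5 were control, which came from DKO cells, and Mir-6KO;Dnmt-null, each with 3 libraries. In Mir-6KO, let-7b and 5 *Dlk1-Dio3* miRNAs were deleted. The labels put 3 further AG-haESC libraries, named 408, in no group.

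Imprinted genes are expressed mainly from 1 parental allele, and the choice is set by DNA methylation laid down in the germ line. At *Gnas* and at *Mest* the germline mark is placed in the oocyte, so that the maternal copy is methylated and *Nespas*, an antisense transcript of the *Gnas* domain, and *Mest* are transcribed from the paternal copy. DNMT1 copies methylation after replication, whereas DNMT3A and DNMT3B place it on unmethylated DNA. AG-haESCs carry a sperm genome alone. Among known roles, miR-296 acts on coding sequence of pluripotency factors such as Nanog in differentiating stem cells, and miR-335 is known from endoderm differentiation and as a suppressor of metastasis.

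The mature sequences are shown because the seed, bases 2 to 8 from the 5′ end and written in capitals, decides which transcripts a miRNA can pair with.
miR-296-3p: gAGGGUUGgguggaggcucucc
miR-296-5p: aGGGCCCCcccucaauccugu
miR-298-3p: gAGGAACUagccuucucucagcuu
miR-298-5p: gGCAGAGGagggcuguucuuccc
miR-335-3p: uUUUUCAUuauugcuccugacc
miR-335-5p: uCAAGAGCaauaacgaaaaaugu
The 6 seeds differed from each other, and 0 other mature miRNAs in the RefSeq set of GRCm38.p6 shared any of them. All 6 members were found in RefSeq, as were 1275 of the 1504 miRNAs of the table.

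The 2 mature arms of each hairpin are shown in capitals, because several results below concern the balance between them.
Mir296: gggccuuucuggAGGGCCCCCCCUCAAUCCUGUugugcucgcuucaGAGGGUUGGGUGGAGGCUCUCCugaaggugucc
Mir298: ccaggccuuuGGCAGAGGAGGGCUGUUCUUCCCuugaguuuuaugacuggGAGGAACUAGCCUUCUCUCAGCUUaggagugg
Mir335: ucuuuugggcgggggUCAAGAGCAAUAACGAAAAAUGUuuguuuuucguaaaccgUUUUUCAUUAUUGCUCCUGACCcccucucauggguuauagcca
*Mir296* spans chr2:174267047-174267125 and *Mir298* spans chr2:174267504-174267585 (GRCm38.p6, minus strand), 378 bases apart. Neither hairpin lies inside another annotated gene. They lie 13651 bases beyond the annotated end of *Nespas*, listed there as *Gnasas1* on the same strand. *Mir335* spans chr6:30741299-30741396 on the plus strand, within an intron of 7 *Mest* transcripts on the same strand.

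Levels are given as normalized CPM, that is, counts relative to library totals that were adjusted by TMM factors computed over all libraries together. Ranked by mean log2 CPM over the 16 natural-embryo groups among 658 miRNAs that passed the filter on low counts, miR-298-5p was 14th, miR-335-3p 37th, miR-335-5p 53rd, miR-296-3p 118th, miR-296-5p 280th and miR-298-3p 320th. The less abundant arms were near the limit of detection in shallow libraries: miR-298-3p had at most 3 counts in 10 of the 91 libraries and 0 counts in 6, and miR-296-5p had at most 3 counts in 4 and 0 in 1. The other 4 members exceeded 3 counts in every library.

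The ratio of the highest to the lowest group mean among the 16 natural-embryo groups was 15.6 for miR-335-3p, 15.1 for miR-298-3p, 8.45 for miR-335-5p, 8.29 for miR-296-5p, 4.45 for miR-296-3p and 3.23 for miR-298-5p. The lowest mean of miR-298-3p, 8.37 in E6.5 Epi Dnmt-null, came from 0 to 4 counts per library, so the ratio of this member is poorly determined. E7.5 Epi Dnmt1-KO held the highest mean of miR-296-3p, miR-296-5p and miR-298-5p. E6.5 Exe Dnmt3a/3b-DKO held the lowest mean of miR-298-5p and of both arms of miR-335. When the 16 groups were put in order of their means, all 15 pairs of neighbours overlapped for each of the 6 members. Across the 16 group means, the arms of miR-335 moved together (Pearson r = 0.93), as did miR-298-5p and miR-296-3p (r = 0.80). These correlations describe 16 means that share tissue, stage and depth, and no test was made on them.

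**Figure D1:**
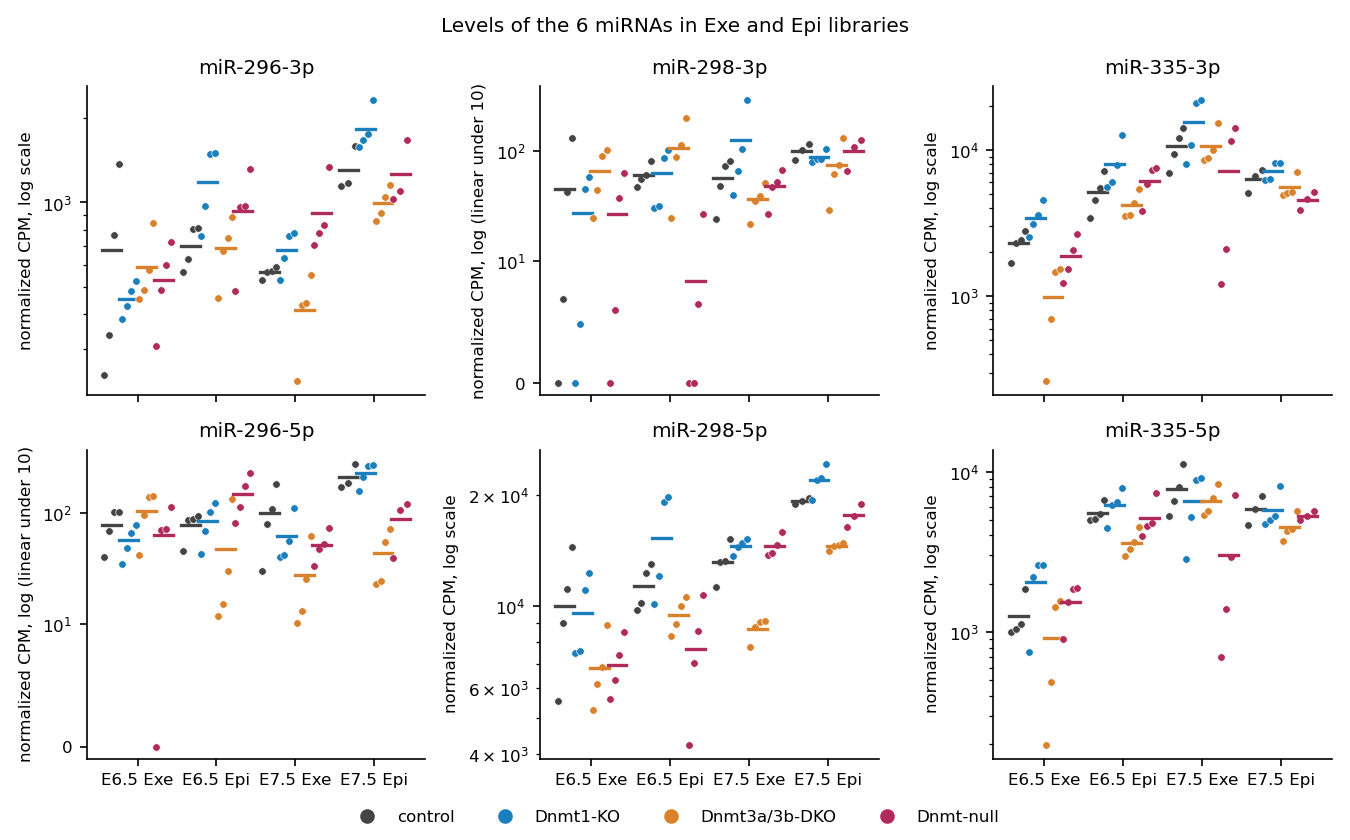
Normalized CPM of the 6 miRNAs in each natural-embryo library (points) and the group mean (bars), by tissue and stage (x axis) and genotype (colour); the y axis is logarithmic and, for miR-296-5p and miR-298-3p, linear under 10. Both arms of miR-335 were lowest in E6.5 Exe, and miR-298-5p varied least, with 3.23 times between its highest and lowest group means.

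Library totals ranged from 45242 to 2394918 counts in natural embryos (median 401240), from 3813865 to 16501907 in the AG-haESC groups, from 154061 to 2425038 in SC embryos at E6.5 and from 8570373 to 26970637 at E7.5. The summed normalized CPM of 5 epiblast markers of the miR-302/367 cluster was 133897 to 192758 in E6.5 Epi control and 17953 to 33211 in E6.5 Exe control, and all 5 markers were detected in every group. The sum of 7 trophoblast markers was 42703 to 69583 in E6.5 Exe control and 5515 to 23909 in E6.5 Epi control. The tissues therefore carried the marker levels their labels imply, with measurable signal of the other tissue in each. The summed normalized CPM of 5 blood markers was 9732 in E6.5 Exe Dnmt1-KO replicate 4 and 9037 in E7.5 Exe Dnmt3a/3b-DKO replicate 2, and at most 1357 in every other natural-embryo library. The sum of 5 markers of mesenchyme or decidua reached 4147 in a library of E6.5 Exe Dnmt1-KO. It was at most 1023 in the other natural-embryo groups, and its part in the results was not tested. E6.5 Epi Dnmt-null replicate 1 was the shallowest library. The WT SC library of replicate 3 and both AG-haESC libraries labelled Mir-6KO also stood apart and are described with their results.

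In control embryos, miR-335 passed the test in both arms, at an adjusted p under 0.05, between the tissues at E6.5 and between the stages in Exe. At E6.5 its level in Exe was below that in Epi, and by E7.5 it had risen in Exe to or above the level in Epi. In E6.5 Exe control, miR-335-5p measured 1114, 1050.0, 1850.1 and 1002 normalized CPM, against 6604, 4956, 5433 and 5041 in E6.5 Epi control. The groups did not overlap, and the log2 fold change, Exe against Epi, was -2.26 (SE 0.27, adjusted p 4.77e-06). For miR-335-3p the values were 2296, 1681, 2804 and 2437 in Exe against 7166, 5541, 4580.3 and 3426 in Epi (log2 fold change -1.28, SE 0.26, adjusted p 0.00134). These were the 2 of 6 members called at an adjusted p under 0.05 in this comparison, in which 29.4% of the 558 miRNAs tested were called. Fold changes come from the fit of each comparison, with TMM factors of its own, and can differ from the ratio of the mean levels. Because each library is a mixture of cells, fewer cells of a type and less RNA per cell cannot be told apart in this or any later comparison.

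At E7.5, the Exe control libraries held 14205, 7011, 9410.1 and 12133 normalized CPM of miR-335-3p, all above the highest E6.5 Exe value of 2804. The log2 fold change between the stages in Exe was 2.27 for miR-335-3p (4.83-fold, SE 0.27, adjusted p 1.95e-05) and 2.70 for miR-335-5p (6.48-fold, SE 0.27, adjusted p 6.69e-06), with 14.3% of the 558 miRNAs called. In Epi, miR-335-3p went from 5178 ± 1582 (SD, n = 4) to 6321 ± 1120 (n = 3) and miR-335-5p from 5508 ± 759 to 5807 ± 1191, differences within the spread (log2 fold changes 0.24 and 0.02). The difference between the stage effects of the tissues was itself tested, a contrast chosen after seeing the data, and was 2.03 for miR-335-3p (SE 0.38, adjusted p 0.00344) and 2.68 for miR-335-5p (SE 0.39, adjusted p 9.96e-04), with 13.4% of miRNAs called. The median of this difference over all 558 miRNAs was 0.61. In Exe control the trophoblast marker sum was 42703 to 69583 at E6.5 and 37179 to 50599 at E7.5, and the epiblast sum was 17953 to 33211 and 30812 to 49177, with overlap in both. Their part in the result was not tested.

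**Figure D2:**
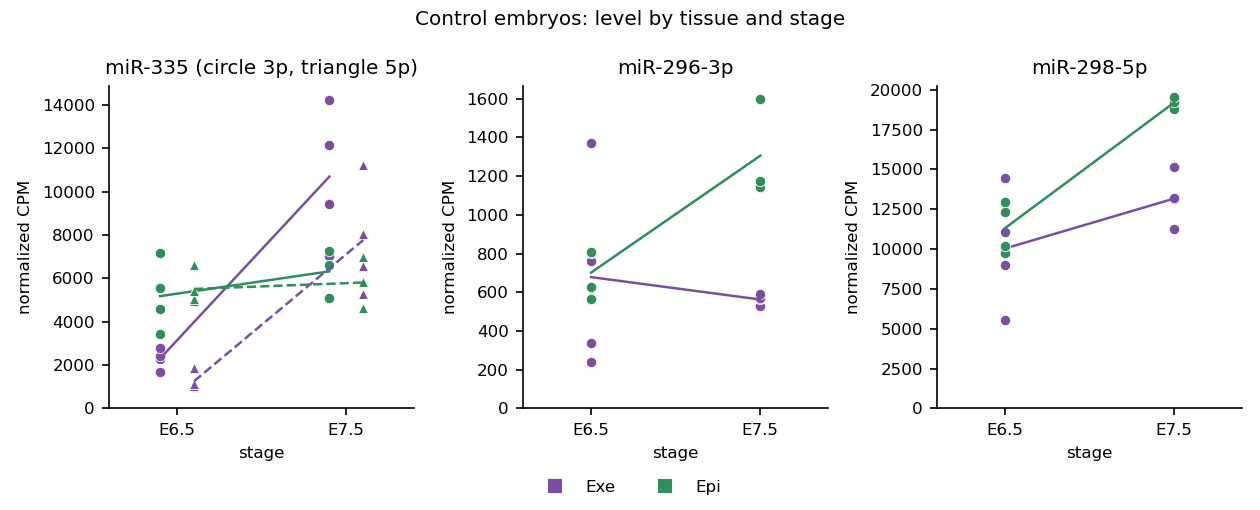
Normalized CPM (y axis) in control libraries at E6.5 and E7.5 (x axis) in Exe (purple) and Epi (green); points are libraries and lines join group means, with miR-335-3p as circles and solid lines and miR-335-5p as triangles and dashed lines. Both arms of miR-335 rose between the stages in Exe, by log2 fold changes of 2.27 and 2.70, and in Epi the differences were 0.24 and 0.02.

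At E7.5 itself, miR-335-3p was higher in Exe (10689.9 ± 3142, n = 4) than in Epi (6321 ± 1120, n = 3), with overlapping libraries (log2 fold change 0.76, SE 0.28, adjusted p 0.0458). This call was lost in 5 of 7 fits that left out 1 library, namely Exe control replicates 1, 3 and 4 and Epi control replicates 2 and 3, with an adjusted p of up to 0.526. The other call among the 6 members was miR-296-3p, which measured 590, 570, 528 and 564 normalized CPM in Exe and 1145, 1174 and 1598 in Epi. The groups did not overlap, and the log2 fold change was -1.23 (SE 0.40, adjusted p 0.0236). In this comparison 33.2% of the 558 miRNAs were called. Without Exe control replicate 2 the adjusted p of miR-296-3p was 0.0627, and under TMM factors computed without the *Dlk1-Dio3* miRNAs it was 0.0538. The call of miR-335-3p was also lost with DESeq2, with RLE scaling and with a mean count of at least 10 (adjusted p up to 0.100).

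In Epi control, every E7.5 library was above every E6.5 library in all 4 miRNAs of the *Gnas* domain, and 1 of the 4, miR-298-5p, passed the test. Its libraries held 10219.9, 9755, 12310.2 and 12979 normalized CPM at E6.5 and 19248, 18819 and 19534 at E7.5 (log2 fold change 0.69, SE 0.22, adjusted p 0.0271). It was the 1 member called where 26.9% of the 558 miRNAs were called. Mean levels of the others were 702 and 1305 for miR-296-3p (adjusted p 0.154), 78.9 and 213 for miR-296-5p (adjusted p 0.0775), and 61.4 and 101 for miR-298-3p (adjusted p 0.607). The call of miR-298-5p was lost without E6.5 Epi control replicate 1 or 2 or E7.5 Epi control replicate 1 (adjusted p up to 0.0850), and under TMM factors computed without the *Dlk1-Dio3* miRNAs (log2 fold change 0.21, adjusted p 0.601). Over the same interval the trophoblast marker sum in Epi control was 5515 to 23909 at E6.5 and 1898 to 2367 at E7.5, and its part in the result was not tested. In Exe, miR-298-5p was 10037 ± 3736 at E6.5 and 13174 ± 1595 at E7.5 (log2 fold change 0.47, SE 0.21, adjusted p 0.151).

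Among genotypes, calls of members were found at E7.5, and most of them involved miRNAs of the *Gnas* domain in Dnmt3a/3b-DKO embryos. The median log2 fold change of all miRNAs tested lay between -0.21 and 0.02 in the 16 genotype comparisons. In E7.5 Epi, miR-296-5p measured 171, 189 and 279.7 normalized CPM in the 3 control libraries and 23.1, 24.5, 54.4 and 71.6 in Dnmt3a/3b-DKO. Every Dnmt3a/3b-DKO library was below every control library (log2 fold change -2.31, SE 0.44, adjusted p 0.00262). The dominant product of the neighbouring hairpin, miR-298-5p, measured 19248, 18819 and 19534 in control and 14624, 14532, 14812 and 14116 in Dnmt3a/3b-DKO. These groups also did not overlap, at a smaller difference (log2 fold change -0.44, SE 0.09, adjusted p 0.00450). In this comparison 7.67% of the 652 miRNAs tested were called, and 2 of the 6 members were. The opposite arm miR-296-3p was 1305 ± 253 (SD, n = 3) in control and 992 ± 132 (n = 4) in Dnmt3a/3b-DKO and was not called (log2 fold change -0.43, adjusted p 0.242). The fall of miR-296-5p kept its call under all 9 alternatives and in all 7 fits without 1 library. That of miR-298-5p kept it in the same 7 fits and in 8 of the 9 alternatives, missing the study's fold threshold of 0.5.

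In Dnmt1-KO Epi against control, 0 of the 6 members were called (16.3% of the 652 miRNAs called). Its interval for miR-298-5p was -0.12 to 0.26 on the log2 scale, and that for miR-296-5p was wider, -0.94 to 0.90. TMM factors without the *Dlk1-Dio3* miRNAs moved the median of all miRNAs in this comparison by 0.33, and with them miR-296-3p (log2 fold change 0.69, adjusted p 0.0249) and miR-298-5p (0.40, adjusted p 0.00366) were called higher in Dnmt1-KO. The 2 single deficiencies were therefore compared directly. In E7.5 Epi, Dnmt1-KO exceeded Dnmt3a/3b-DKO in miR-296-5p, with 269, 275, 159 and 212 normalized CPM against 23.1, 24.5, 54.4 and 71.6 (log2 fold change 2.29, SE 0.43, adjusted p 0.00231). It exceeded it also in miR-296-3p, with 2324, 1751, 1581 and 1673 against 1152, 915, 859 and 1044 (log2 fold change 0.80, SE 0.19, adjusted p 0.0133), and in miR-298-5p, with 24240.0, 22175, 21882 and 19390.2 against 14624, 14532, 14812 and 14116 (log2 fold change 0.51, SE 0.08, adjusted p 0.00111). None of these 3 pairs of groups overlapped. The arms of miR-335 did not differ beyond the spread (log2 fold changes 0.29 and 0.27). Of the 652 miRNAs, 9.82% were called, and 3 of the 6 members were. The call of miR-296-3p was lost without Dnmt3a/3b-DKO replicate 2 or 3, with an adjusted p of up to 0.0554.

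Marker sums differed between these groups as well. The epiblast sum was 213580 to 221378 in E7.5 Epi control, 139472 to 196882 in Dnmt1-KO and 195626 to 208007 in Dnmt3a/3b-DKO, while the trophoblast sum was 1898 to 2367, 2688 to 3937 and 2849 to 5416 in the same order. All markers of both lists were detected in each group. Their part in the differences was not tested.

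In E7.5 Epi Dnmt-null, miR-296-5p measured 39.6, 105.6 and 120.6 normalized CPM, below the 3 controls (log2 fold change -1.35, SE 0.49, adjusted p 0.0426). The host intron miRNA miR-335-3p measured 4601, 3892 and 5177 against 7262, 6618 and 5083 in control, with overlap (log2 fold change -0.54, SE 0.19, adjusted p 0.0388). These 2 of 6 calls stood beside 33.7% of the 652 miRNAs called. Both were close to the threshold: miR-296-5p kept its call in 1 of 6 fits without 1 library and miR-335-3p in 2 of 6, where the removal of control replicates 1 and 2 or of Dnmt-null replicates 1 and 2 ended both calls, and that of control replicate 3 ended the call of miR-296-5p. With size factors of DESeq2's kind in edgeR, 0 members were called. The remaining 4 members had log2 fold changes of -0.20 to -0.07 and none was called. Epiblast markers were lower in these embryos (94729 to 159247), and trophoblast markers higher (3647 to 7011), than in control, and their part was not tested.

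In E7.5 Exe, the dominant arm miR-298-5p again separated the single deficiencies. It measured 14765, 15174, 14427 and 13654 normalized CPM in Dnmt1-KO, whereas the Dnmt3a/3b-DKO libraries measured 9037, 8790.0, 7765 and 9117. The groups did not overlap (log2 fold change 0.88, 1.84-fold, SE 0.13, adjusted p 6.81e-04). This was the 1 member called where 1.68% of the 597 miRNAs were called, and it was called under all 9 alternatives and in all 8 fits without 1 library. Control libraries measured 13198, 11231, 13129 and 15137, above every Dnmt3a/3b-DKO library and overlapping with Dnmt1-KO. Against them 0 members were called in any genotype, with log2 fold changes of miR-298-5p of 0.45 in Dnmt1-KO (adjusted p 0.0546, 5.03% of miRNAs called), -0.44 in Dnmt3a/3b-DKO (adjusted p 0.0942, 3.02% called) and 0.31 in Dnmt-null (adjusted p 0.167, 9.88% called). DESeq2 called miR-298-5p in Dnmt1-KO (log2 fold change 0.46, adjusted p 0.00745). The epiblast marker sum of the Dnmt3a/3b-DKO libraries was 19500 to 33759 and that of Dnmt1-KO 8810 to 30174, and the trophoblast sums were 29409 to 38598 and 24640 to 34736. The blood marker sum was 9037 in Dnmt3a/3b-DKO replicate 2, 441 to 756 in the other 3 libraries of that group and 204 to 311 in Dnmt1-KO. Without that replicate the log2 fold change of miR-298-5p was 0.93 (adjusted p 0.00426). The part of the epiblast and trophoblast sums was not tested.

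Other members in E7.5 Exe varied more between libraries. miR-296-5p was 101 ± 64.2 in control and 27.6 ± 24.0 in Dnmt3a/3b-DKO (SD, n = 4 each; log2 fold change -1.70, SE 0.69, adjusted p 0.361), the direction seen in Epi but within the spread of the libraries. miR-296-3p in Dnmt-null measured 703, 778, 833 and 1345 against 528 to 590 in control, with no overlap, and missed the threshold (adjusted p 0.0507). For miR-335-3p, the Dnmt-null libraries measured 1213, 2089, 11448 and 14088, replicates 1 and 2 lying below every control library and replicates 3 and 4 within their range. For miR-335-5p, replicates 1, 2 and 4 lay below every control library, at 703, 1382 and 2941, and replicate 3 was at 7108. In replicates 1 and 2 the trophoblast marker sum was 43682 and 47936, against 32653 and 33983 in replicates 3 and 4, and the visceral endoderm sum was 6211 and 6915 against 5078 and 1830.2. Whether these values go with those of miR-335 was not tested.

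At E6.5, no member passed the test in any of the 8 genotype comparisons. In Exe, 0.532% of the 376 miRNAs were called in Dnmt3a/3b-DKO and in Dnmt-null against control and 0.0% in the comparisons of Dnmt1-KO, and in Epi 0.733% of the 409 miRNAs were called in Dnmt1-KO, 3.42% in Dnmt3a/3b-DKO and 13.0% in Dnmt-null against control, and 0.0% in Dnmt1-KO against Dnmt3a/3b-DKO. The member nearest to a call was miR-335-3p in Exe, where Dnmt1-KO measured 2547, 4571, 3588 and 3100.0 normalized CPM and Dnmt3a/3b-DKO 701, 262, 1474 and 1529.8, without overlap (log2 fold change 1.81, SE 0.39, adjusted p 0.0546). It was called with DESeq2, RLE scaling, library totals, TMM factors without the *Dlk1-Dio3* miRNAs and no filter on low counts (adjusted p 1.03e-04 to 0.0465), and not with the compared groups alone (0.329). Against control the interval of miR-335-3p was -2.05 to -0.44 in Dnmt3a/3b-DKO (adjusted p 0.173) and -0.23 to 1.35 in Dnmt1-KO. Without Dnmt1-KO replicate 4, the library with the high blood marker sum, the log2 fold change between the deficiencies was 1.87 (adjusted p 0.0506), and without replicate 3 it was 1.70 (adjusted p 0.126).

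In E6.5 Epi Dnmt-null, miR-298-3p had 0, 4, 0 and 1 counts, against 16, 13, 30 and 39 in control. These libraries were shallow, with totals of 45242 to 123169 against 281158 to 458837, and the difference was not called (log2 fold change -2.38, SE 0.97, adjusted p 0.112). Without the shallowest Dnmt-null library the values were -2.06 and 0.180. In the same fit miR-296-3p was higher in Dnmt-null, by a log2 fold change of 0.86, and was not called (adjusted p 0.0800). With all libraries its levels were 484 to 1322 normalized CPM in Dnmt-null and 566 to 809 in control, with overlap. For miR-335-5p in E6.5 Epi, every Dnmt3a/3b-DKO library (2991 to 4500.0) was below every control library (4956 to 6604), at log2 fold change -0.64 (SE 0.25, adjusted p 0.213).

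The effect of Dnmt-null against control was compared between Exe and Epi at each stage, and 0 members were called at E6.5 (0.0% of miRNAs called) or at E7.5 (7.01% called). At unadjusted p under 0.05 no member passed at either stage. The difference of effects at E7.5 was 0.73 for miR-296-3p (interval -0.02 to 1.48) and -1.24 for miR-335-5p (interval -2.50 to 0.03), so neither a difference nor a common effect was shown.

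**Figure D3:**
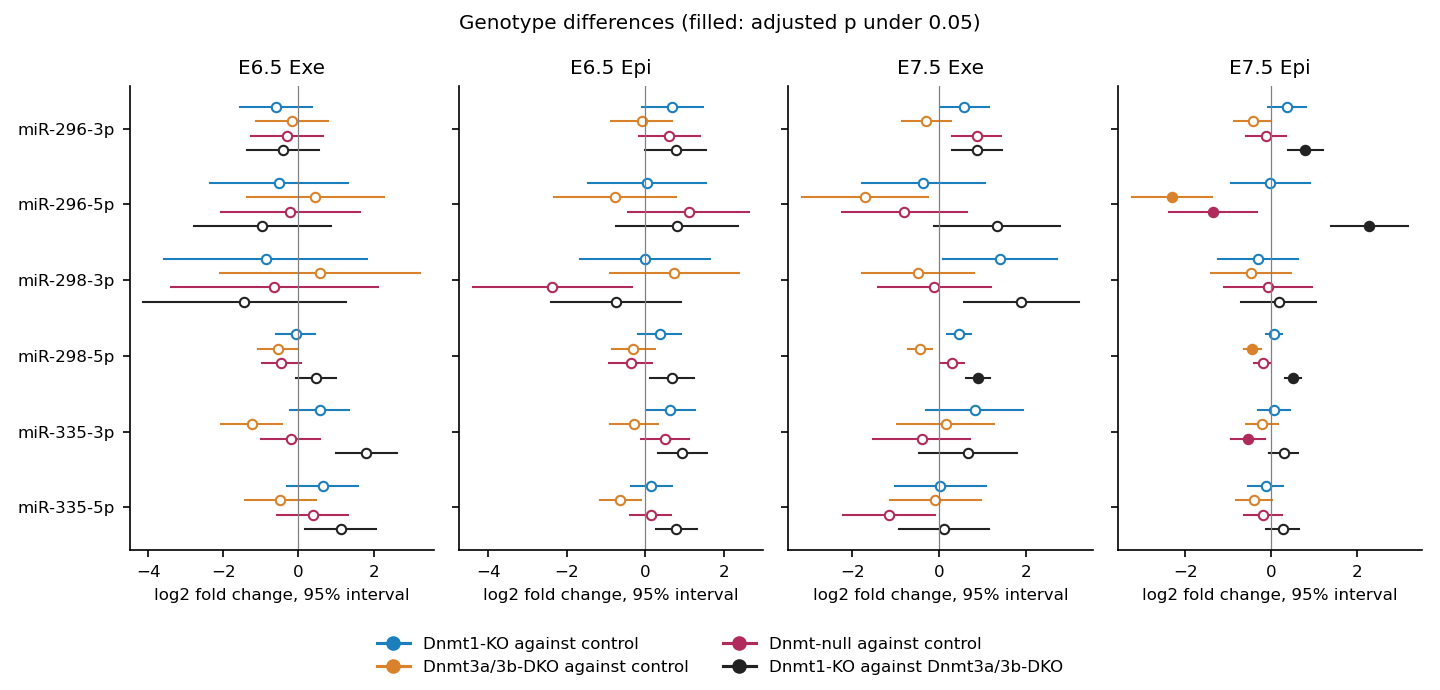
Log2 fold changes of the 6 miRNAs (rows) between genotypes, 1 panel for each tissue and stage, with 95% intervals as lines; filled points have an adjusted p under 0.05. Calls were made in E7.5 Epi and, for miR-298-5p, in E7.5 Exe between Dnmt1-KO and Dnmt3a/3b-DKO, and 0 were made at E6.5.

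The balance of the 2 arms of a hairpin needs no scaling between libraries, and is given as the 5p share of 5p plus 3p counts, as a description without a test and without correction for unequal capture of the arms. miR-298 was nearly all 5p, at 98.05% or more in every library. For miR-296, the minor 5p arm took 13.9% ± 0.949 (SD, n = 3) in E7.5 Epi control, 11.1% ± 1.87 in Dnmt1-KO, 4.24% ± 2.27 in Dnmt3a/3b-DKO and 6.40% ± 2.55 in Dnmt-null. The control libraries (13.0% to 14.9%) did not overlap with those of Dnmt3a/3b-DKO (1.96% to 6.42%) or Dnmt-null (3.70% to 8.78%). In E7.5 Exe the means were 14.6% in control and 6.15% in Dnmt3a/3b-DKO, but the control libraries ranged from 5.07% to 24.4% and overlapped with all others. At E6.5 the Epi means were 10.03% in control, 14.8% in Dnmt-null, 6.84% in Dnmt1-KO libraries and 6.22% in those of Dnmt3a/3b-DKO, with overlap between all of them.

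For miR-335 both arms were abundant. The 5p share was 52.2% ± 5.80 in E6.5 Epi control and 35.002% ± 4.97 in E6.5 Exe control, without overlap, and 47.8% ± 1.18 and 42.0% ± 1.89 at E7.5, again without overlap. In E7.5 Exe, Dnmt1-KO libraries held 26.3% to 32.6%, below the 39.8% to 44.1% of control. WT AG-haESCs held 12.8% to 14.0%, O48 13.0% to 13.7% and the 408 libraries 12.1% to 14.0%, below every embryo library of either kind, the lowest of which was 17.3%. SC embryos at E6.5 had means of 37.0% to 42.9%, and those at E7.5 31.2% to 31.6%. The 2 AG-haESC libraries labelled Mir-6KO held 28.0% and 36.4%, apart from the other AG-haESCs and near the SC embryos.

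**Figure D4:**
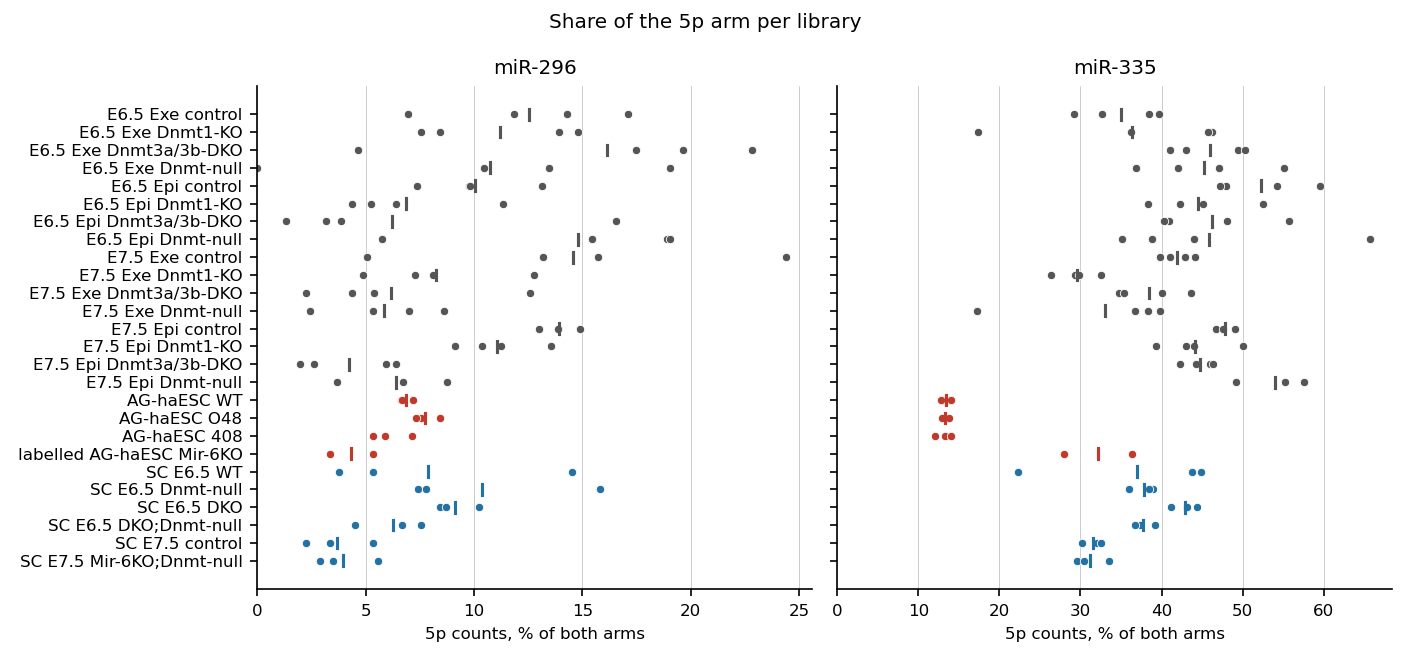
Share of the 5p arm in the counts of miR-296 and miR-335 (x axis, percent) for each library with at least 20 counts of the hairpin (points) and the group mean (ticks; none for the 408 libraries), for natural embryos (grey), AG-haESCs (red) and SC embryos (blue). For miR-335 the WT, O48 and 408 AG-haESC libraries lay between 12.1% and 14.0%, and the embryo libraries at 17.3% or above.

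A label check comes before the AG-haESC results. Both AG-haESC libraries labelled Mir-6KO held miRNAs that the label gives as deleted: miR-127-3p was at 46503 and 55499.8 normalized CPM, against 21057 to 21398 in WT, 930 to 1061 in O48 and 66294 to 83423 in SC E7.5 control. miR-541-5p, miR-409-3p, miR-540-3p and miR-369-5p were likewise above their levels in O48, the parental line, and let-7b-5p was at 38.4 to 73.8 against 4.87 to 36.6. Their epiblast marker sum was 296144 and 348819, against 6112 to 6613 in WT, 1681 to 2612 in O48 and 220494 to 279319 in SC E7.5 control. The 2 libraries thus go against their label, and directions drawn from them are those of libraries labelled Mir-6KO. In SC E7.5 Mir-6KO;Dnmt-null embryos the same miRNAs were also present (miR-127-3p at 36583 to 45180), which checks nothing, because the oocyte brings an undeleted allele.

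In AG-haESCs, which hold the allele that transcribes *Nespas* and *Mest*, all 6 members were detected. WT cells held 3407, 3169 and 3387 normalized CPM of miR-296-3p, 19428, 18804 and 18457 of miR-298-5p, and 6496, 6268 and 6353 of miR-335-3p. The spread between these libraries was small. O48 measured 12419, 5762.5 and 14621 of miR-335-3p, 2 libraries above and 1 below those of WT, and 1916, 917 and 2175 of miR-335-5p against 1011, 923 and 1032. With all 3 AG-haESC groups in 1 fit, 0 members were called between O48 and WT (13.7% of the 773 miRNAs called, log2 fold changes 0.74 and 0.72 for the 2 arms, adjusted p 0.106 and 0.143). Without the libraries labelled Mir-6KO in the fit, both arms were called (log2 fold changes 1.02 and 1.0, SE 0.26 each, adjusted p 0.0245 and 0.0251, with 26.1% of 648 miRNAs called). miR-298-5p was 18896 ± 492 in WT and 17069 ± 2452 in O48 (log2 fold change -0.16, interval -0.36 to 0.03).

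The libraries labelled Mir-6KO differed from O48 in 4 of 6 members, where 52.1% of the 773 miRNAs were called and the median log2 fold change of all miRNAs was -0.82. miR-296-3p was at 2034 and 2062 (log2 fold change -0.71, SE 0.12, adjusted p 0.00185), and miR-296-5p at 114.7 and 71.5 (-1.61, SE 0.31, adjusted p 0.00297). miR-298-5p was at 23039 and 22954 (0.37, SE 0.09, adjusted p 0.0112), and miR-335-5p at 2905 and 3932 (1.0, SE 0.29, adjusted p 0.0219). The call of miR-296-3p was lost with library totals and with TMM factors without the *Dlk1-Dio3* miRNAs, where its log2 fold changes were -0.20 and -0.30 (adjusted p 0.198 and 0.107). That of miR-298-5p was lost without a filter on low counts (0.18, adjusted p 0.210), with a replicate block and with the study's thresholds. Without replicate 2 of the libraries labelled Mir-6KO, the calls of miR-298-5p and miR-335-5p were lost (adjusted p up to 0.138 and 0.168).

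In SC embryos at E6.5, taken as epiblast, WT replicate 3 stood apart with an epiblast marker sum of 26574, against 198742 and 226423 in the other 2, and with 1230 normalized CPM of miR-335-5p against 6006 and 4866. No member was called against WT in Dnmt-null SC embryos (1.52% of the 461 miRNAs called) or in DKO SC embryos (0.217% called). This held without WT replicate 3, where the log2 fold changes in Dnmt-null were -0.07 for miR-296-3p, -0.14 for miR-298-5p, 0.28 for miR-335-3p and -0.10 for miR-335-5p. In that fit the adjusted p of these 4 members ranged from 0.466 to 0.859. DKO SC libraries held 12978, 13350 and 12650.2 normalized CPM of miR-298-5p and 5960.5, 6019 and 6381 of miR-335-3p.

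DKO;Dnmt-null SC embryos, which were in a second table, measured 10892, 10804 and 11719 of miR-335-3p and 7008, 6432 and 6803 of miR-335-5p, above every DKO library. The log2 fold changes against DKO were 1.17 (SE 0.09, adjusted p 3.58e-09) and 0.86 (SE 0.09, adjusted p 2.22e-07), and 35.3% of the 603 miRNAs were called. Table and genotype cannot be told apart here. The 4 members of the *Gnas* domain were not called in this comparison (log2 fold changes -0.39 to 0.11), although on the common scale of levels all 4 were below DKO in every library, for example 9569 ± 1293 against 12993 ± 350 for miR-298-5p. This separation depended on the scaling. With library totals alone, miR-296-3p was above DKO in every library (1404 to 1483 against 1194 to 1285 CPM). On that scale miR-298-5p overlapped with DKO (9834 to 11047 against 10521 to 11108). At E7.5, no member was called between Mir-6KO;Dnmt-null and control SC embryos (3.08% of the 585 miRNAs called). In the latter comparison miR-298-5p measured 21070.0, 29367 and 22181 against 15943, 17727 and 19171, without overlap (log2 fold change 0.59, SE 0.18, adjusted p 0.170), and miR-335-3p had an interval of -0.26 to 0.37. With library totals alone miR-298-5p was 23188 to 27469 against 12878 to 15121 CPM. The epiblast marker sum was 67477 to 182580 in Mir-6KO;Dnmt-null and 220494 to 279319 in control, and its part was not tested.

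WT SC embryos were compared with the WT AG-haESCs they are made with, a comparison of an embryo that also holds a maternal genome with a haploid cell line. miR-335-5p was higher in the embryos (6006, 4866 and 1230 against 1011, 923 and 1032; log2 fold change 2.11, SE 0.58, adjusted p 0.0225), and miR-298-5p was lower (11054, 10564 and 7083 against 18457 to 19428; log2 fold change -0.91, SE 0.31, adjusted p 0.0481). Of the 603 miRNAs, 39.3% were called. Each of these calls was kept in 1 of 6 fits without 1 library, that without WT SC replicate 3, and removal of any of the other 5 libraries ended both. Without that replicate the log2 fold changes were 2.52 (adjusted p 2.24e-06) and -0.74 (adjusted p 2.17e-04), and miR-296-3p was also lower (-1.14, adjusted p 0.00144). Among other scalings, filters and models, miR-335-5p kept its call in 8 of 8. miR-298-5p kept its call in 3 of 8, with log2 fold changes of -1.20 to -0.35 and an adjusted p of up to 0.435. It was lost with RLE scaling, library totals, TMM factors without the *Dlk1-Dio3* miRNAs, a mean count of at least 10 and a replicate block. The level of miR-335-3p was similar in embryos and cells, at 5994 ± 1707 and 6372 ± 115 (log2 fold change -0.03, interval -0.77 to 0.72).

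**Figure D5:**
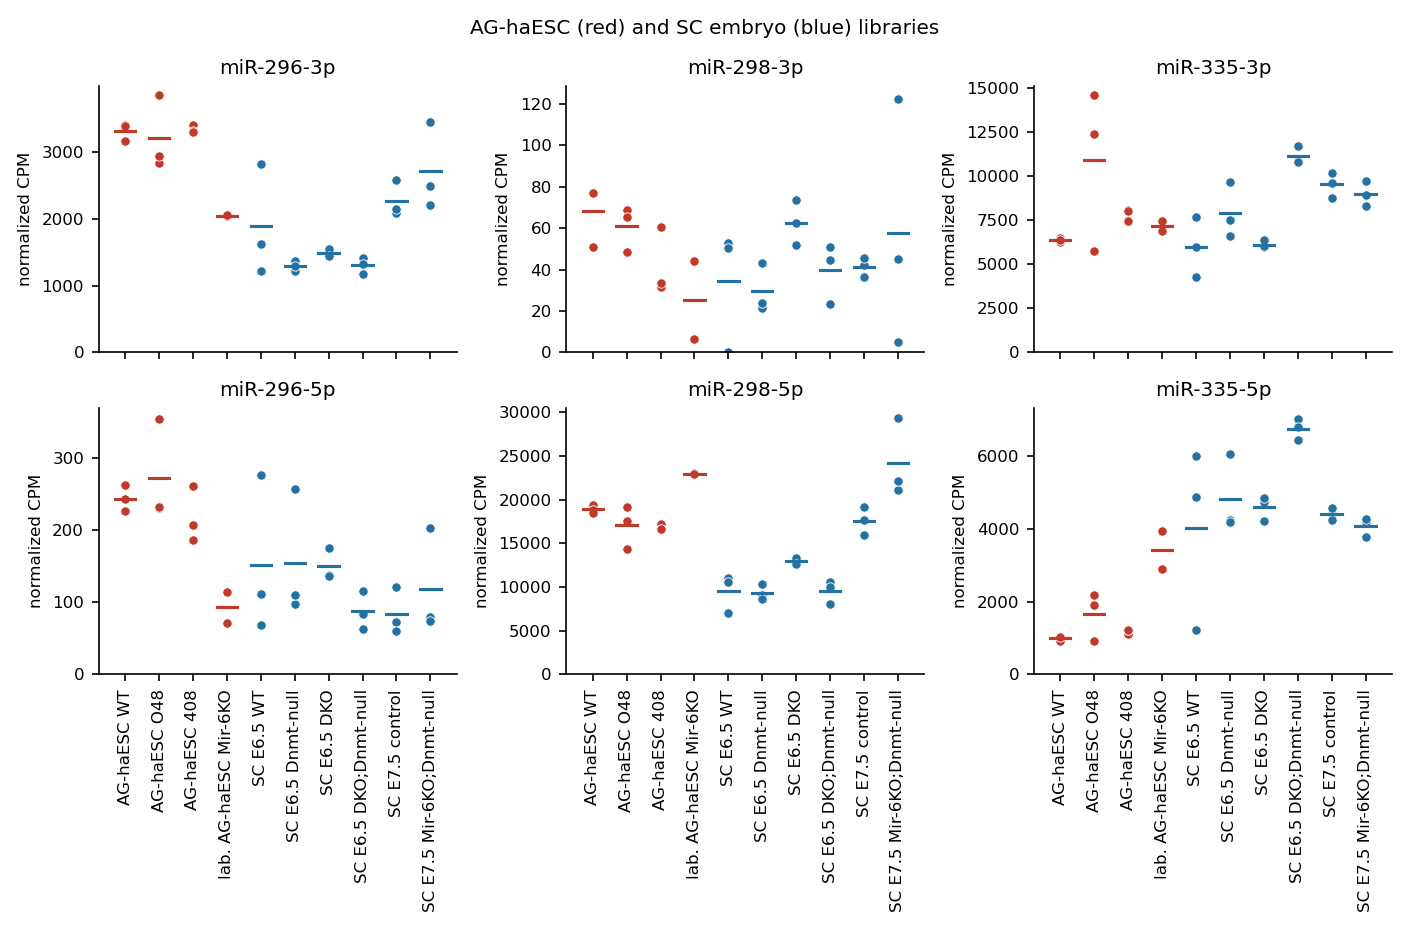
Normalized CPM of the 6 miRNAs (y axes, linear from 0) in AG-haESC (red) and SC embryo (blue) libraries; points are libraries and bars group means, with no bar for the 408 libraries, and "lab." marks the libraries labelled Mir-6KO. miR-335-5p was 923 to 1032 in WT AG-haESCs and 3766 or above in every SC library but WT replicate 3 at E6.5.

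Other imprinted miRNAs were counted for comparison. At *Igf2-H19*, miR-483 lies in an intron of paternally expressed *Igf2*, and 3 of 4 listed miRNAs were tested in E7.5 Exe. There 2 were lower than control in Dnmt1-KO, 2 in Dnmt-null and 0 in Dnmt3a/3b-DKO, and miR-483-5p had log2 fold changes of -3.04, -4.01 and -0.28. Of all miRNAs tested in Exe, 5.03%, 9.88% and 3.02% were called in the same order. In E7.5 Epi the same numbers of 3 tested were lower. Of 113 *Dlk1-Dio3* miRNAs, which are maternally expressed, 99 were tested in E7.5 Epi, where 34 were higher and 1 lower in Dnmt-null, 25 higher and 0 lower in Dnmt1-KO, and 5 higher and 2 lower in Dnmt3a/3b-DKO. Over all miRNAs, 33.7%, 16.3% and 7.67% were called in either direction in these comparisons. Counted over both directions, the share of *Dlk1-Dio3* miRNAs in Dnmt-null was near that of all miRNAs. This count takes no account of the direction of the calls. Of the 78 miRNAs of the *Sfmbt2* families, 42 were tested there, of which 19, 3 and 4 were higher in the same order and 0 lower. Of the 6 members, 2, 0 and 2 were called in the same comparisons. miR-184, near *Rasgrf1*, was below the filter in all natural-embryo comparisons.

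The listed miRNAs that act with miR-296 on coding sequence of pluripotency factors, miR-134-5p and miR-470-5p, were both higher than control in E7.5 Epi of all 3 genotypes. Their log2 fold changes in Dnmt3a/3b-DKO were 0.89 (SE 0.22, adjusted p 0.0167) and 3.82 (SE 0.34, adjusted p 4.26e-07), where miR-296-5p fell by 2.31 and miR-296-3p had a log2 fold change of -0.43. Neither was called between Dnmt1-KO and Dnmt3a/3b-DKO in E7.5 Epi (log2 fold changes 0.17 and -0.75, adjusted p 0.711 and 0.0854).

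By Pearson correlation of mean log2 CPM over the 16 natural-embryo groups, among 658 miRNAs, the patterns most like that of miR-296-3p were those of miR-129-5p (r = 0.87), miR-129b-3p (0.84) and miR-34c-5p (0.83). For miR-298-5p they were miR-3099-3p (0.87), miR-34b-3p (0.84) and miR-431-5p (0.81). For miR-335-3p they were miR-370-3p and miR-142a-5p (0.75 each) and miR-329-3p (0.73), all below the value of 0.93 with its own opposite arm. These values describe group means that share libraries and depth.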

How the data were processed

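Small RNA of natural embryos, AG-haESCs and SC embryos was sequenced by CAS-seq from 100 pg of RNA. The authors trimmed reads with fastp 0.20.1, mapped them to GRCm38 with Bowtie 1.2.1.1 and assigned them to mature miRNAs of miRBase 21 with some latitude at the 3′ end, and deposited raw read counts per miRNA in a table of 88 libraries and a second table of 3. An earlier copy, with 2 columns of no listed sample, was not used. The members and lists were chosen with earlier results of these data known. All 6 members are named in every comparison, and for the more abundant arm of each hairpin the 3 other miRNAs with the most similar pattern. Counts were tested with edgeR 4.0.16 (quasi-likelihood, R 4.3.3) after filterByExpr with a count minimum of 10 and TMM scaling, with Benjamini-Hochberg adjustment over all miRNAs tested, two-sided; a call is an adjusted p under 0.05. Genotypes of 1 tissue and stage shared a fit. DESeq2 1.42.0, other scalings and filters, and fits without each library were alternatives. The procedure was tested on simulated data. Replicate numbers did not pair the samples. The 408 libraries entered no comparison, and O48 was taken as DKO because the miRNA deletions were made in it. Totals of 45242 to 26970637 counts set the precision, and p-values measure the spread between libraries only. Molecular identifiers are not named in the sources used here, so counts of reads may not be independent molecules.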

Additional observations from a re-analysis of the deposited data

Results flagged for a closer look

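In groups of 4 libraries, a library was taken as far from the others when its gap to the nearest exceeded Dixon's 95% critical value. Of 84 groups tested, 5 held such a library, about the number that chance gives at 1 in 20. They were E6.5 Epi control replicate 1 for miR-296-5p (45.1 normalized CPM), E6.5 Epi Dnmt3a/3b-DKO replicate 1 for miR-296-5p (133), E7.5 Epi Dnmt3a/3b-DKO replicate 4 for miR-335-3p (7115), E6.5 Exe control replicate 3 for miR-335-5p (1850.1) and E7.5 Epi Dnmt1-KO replicate 4 for miR-335-5p (8139). Chance was not tested beyond this rate.

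The stage effect in control embryos differed between Exe and Epi for both arms of miR-335, by 2.03 for miR-335-3p and 2.68 for miR-335-5p on the log2 scale. Both were called under all 8 alternatives and in all 15 fits without 1 library.

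The 3 AG-haESC libraries named 408, which the labels put in no group, held at least 7487 normalized CPM of miR-335-3p and at least 1111 of miR-335-5p. The highest WT AG-haESC libraries held 6496 and 1032. In O48, miR-335-3p ranged from 5763 to 14621, and the 408 values of both arms lay within the range of O48.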

How the results depend on the processing

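Over 30 comparisons, 25 of 180 pairs of a member and a comparison were called, and 13 of the 25 were called in every setting run. Of 3027 refitted values, 2877 kept the side of the threshold and 0 called values reversed. The numbers of members called are given for settings that moved them by over 1.5 times, and the cause was not tested. With the study's thresholds (log2 fold change over 0.5, unadjusted p under 0.05) they were 2 for E6.5 Exe Dnmt3a/3b-DKO against control and 2 between the single deficiencies. For the 3 genotypes against control and then the single deficiencies, they were 1, 1, 1 and 3 in E6.5 Epi and 2, 1, 2 and 3 in E7.5 Exe. They were 1 for E7.5 Epi Dnmt3a/3b-DKO against control, 2 for control Epi between stages, 2 for O48 against WT and 1 for SC E7.5, where these thresholds called 4.26% to 59% of all miRNAs. With DESeq2 they were 1 for E6.5 Exe Dnmt1-KO against Dnmt3a/3b-DKO, 1 for E6.5 Epi Dnmt-null, 1 for E6.5 Epi between the single deficiencies, 1, 1, 1 and 3 in E7.5 Exe, 1 for E7.5 Epi Dnmt-null, 2 for control Epi stages, 2 for O48 and 1 for SC E7.5. With RLE scaling, E6.5 Exe between the single deficiencies had 1, E7.5 Exe Dnmt1-KO 1, E7.5 Exe Dnmt-null 1, E7.5 Epi Dnmt-null 0, O48 2 and WT SC against AG-haESCs 1. With library totals, the same E6.5 Exe comparison had 1, E7.5 Exe Dnmt-null 1, E7.5 Epi Dnmt-null 0, SC E7.5 1 and WT SC 1. With TMM factors without the *Dlk1-Dio3* miRNAs, E6.5 Exe between the single deficiencies had 1, E7.5 Exe Dnmt1-KO 1 and Dnmt-null 2, E7.5 Epi Dnmt1-KO 2 and Dnmt-null 0, control E7.5 tissues 1, control Epi stages 0 and WT SC 1. Without a filter on low counts, that E6.5 Exe comparison had 1, E7.5 Exe Dnmt1-KO 1 and Dnmt-null 1, E7.5 Epi Dnmt-null 0, the tissue difference of the Dnmt-null effect at E7.5 1, and O48 2. With a mean count of at least 10, E7.5 Exe Dnmt1-KO had 1, Dnmt-null 1, E7.5 Epi Dnmt-null 1 and WT SC 1. With only the compared groups, E7.5 Exe Dnmt3a/3b-DKO had 1, E7.5 Epi Dnmt-null 1, control Epi stages 3 and O48 2.

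Leaving out each library in turn gave 2 to 5 members called for Mir-6KO against O48, 0 to 2 for O48, 2 to 4 for control E6.5 tissues, 1 to 2 for control E7.5 tissues, 0 to 1 for control Epi stages, E6.5 Exe between the single deficiencies, E7.5 Exe Dnmt-null, E7.5 Exe Dnmt3a/3b-DKO and the E7.5 tissue difference, 0 to 2 for E7.5 Epi Dnmt-null and 0 to 3 for WT SC. Same-numbered libraries deviated together by a mean correlation of -0.02 to 0.12 over the fits; the fit with a replicate block called 1 member in E6.5 Exe between the single deficiencies and 1 in WT SC against AG-haESCs. Scaling moved the median of all miRNAs by over 0.1 (log2) in 21 of 30 comparisons without the *Dlk1-Dio3* miRNAs (-0.47 to 0.60), 14 with library totals (-0.21 to 0.56), 7 with RLE and 6 with DESeq2. Levels moved by over 1 SD with library totals in 41 of 150 member and group means. Arm shares moved by less than 1 SD in all 75 hairpin and group means when at least 100 counts were asked for. Depth limits miR-298-3p and miR-296-5p at E6.5.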

Other observations

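The 3 AG-haESC libraries named 408 measured 3404, 3318 and 3306 normalized CPM of miR-296-3p and 17245, 16662 and 16696 of miR-298-5p, near the WT and O48 values. Their miR-335-3p was at 8080.1, 8016 and 7487, and miR-335-5p at 1111, 1223 and 1219. miR-127-3p was at 307 to 317 in these libraries, below the 930 to 1061 of O48, and the epiblast marker sum was 3212 to 3271.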
